A study of Mus musculus with 30 samples.

Results

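The 38 genes described here code for the machinery that divides a cell: the kinases that start mitosis, the spindle checkpoint, the enzymes that open anaphase, and the proteins of the spindle and of cytokinesis. They were chosen by name, as mitotic kinases, checkpoint, spindle and cytokinesis genes, and 37 of the 38 were found among the 18194 genes that have a probe set of their own on the array. The expression of Ccnb1 was not analysed here. Each gene was read from 1 probe set, the one with the highest mean over all 30 arrays, and all 37 passed the filter on low values that left 14548 genes to test.

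The small intestine came from mice aged 2 months, in which the inducible, intestine-specific Cre called Ah-cre had been used to delete Rb, or Rb and Myc together, with tissue taken at day 5 after ablation. Villi and crypts were harvested apart from control mice, mice without Rb (Rb KO) and mice without Rb and Myc (DKO), with 5 arrays in each of the 6 groups. The strain, and the alleles or Cre status of the control mice, were not given in the sources used here, and no group has Myc deleted alone. Among all genes tested, H2-Q2 had a log2 difference of -7.04 between Rb KO and control villi and -5.44 between Rb KO and control crypts. Between DKO and Rb KO villi it was 5.13. Whether the genotype groups differ in strain background was not tested. Nothing in the labels states that the 5 arrays of a group came from 5 different animals, so the p-values speak for the spread among these arrays. Each group held arrays with high and with low Xist, the transcript of the inactive X chromosome, and so more than 1 animal. The comparison of DKO with Rb KO asks how far the mitosis genes depend on Myc once Rb is gone, in each tissue.

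Rb is the retinoblastoma protein, which binds E2F transcription factors and restrains the genes of the cell cycle. Mitosis genes are expressed late in the cycle, after the DNA has been copied, and many are repressed in resting cells by the DREAM complex, an assembly of E2F, Rb-family and MuvB proteins that binds a promoter element called CHR. In the small intestine cells divide in the crypts, and the epithelium of the villi has left the cell cycle; Myc is a transcription factor that promotes cell growth and division.

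Levels are log2 values, given as mean ± SD (n = 5), differences are log2 with the SE of the fit, and each adjusted p comes from limma, two-sided over all genes tested, with a gene called at 0.05. Rb1 read 9.73 ± 0.45 in control villi, 8.27 ± 0.06 with Rb deleted and 8.47 ± 0.16 with both deleted, and 9.91 ± 0.5, 8.24 ± 0.07 and 8.3 ± 0.24 in crypts, lower on every knockout array than on any control array of its tissue. Myc in crypts read 10.51 ± 0.23 (control), 10.48 ± 0.41 (Rb KO) and 8.88 ± 0.13 (DKO), with a difference between DKO and Rb KO of -1.6 ± 0.16 (limma adjusted p = 1.9e-05). In villi Myc read 7.06 ± 0.6, 7.28 ± 0.21 and 6.76 ± 0.17, and although every DKO array lay under every Rb KO array the difference of -0.52 ± 0.21 was not called (limma adjusted p = 0.147). Array medians were 6.28 to 6.34 in villi and 6.67 to 6.73 in crypts, so the tissues appear to have been normalized apart and levels were not set across them. The 7 villus markers averaged 13.61 to 13.87 on villus arrays and 11.39 to 12.48 on crypt arrays, and the 9 crypt markers 7.99 to 10.3 and 12.1 to 12.78, so markers of each tissue were also measured in the other. Among villus arrays, control 2 and control 5 had the lowest mean of 9 crypt markers (7.99 and 8.12, against 8.81 to 10.3 on the others) and also the lowest mean over the 37 mitosis genes.

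Nearly all mitosis genes were expressed more strongly in Rb KO villi than in control villi. Of the 37 genes 35 rose in Rb KO against control and 0 fell, with a median difference of 1.67, while 30.5% of all genes tested were called, 14.7% as higher and 15.8% as lower, and the median over all genes was -0.02. The rise was over 2-fold for 31 genes and reached 3.14 ± 0.34 for Mki67, the antigen of dividing cells that coats mitotic chromosomes (limma adjusted p = 6.0e-06). For 35 genes every Rb KO array lay above every control array, against 9.88% of all genes. Of 24 genes with several probe sets, Tpx2, Nek2 and Pttg1 had one with a difference of the other sign, and the count of such genes was 0 in DKO against Rb KO villi, 6 in DKO against control villi, 6 in Rb KO against control crypts, 8 in DKO against Rb KO crypts and 4 in DKO against control crypts. The 3' minus 5' signal of GAPDH, a sign of RNA quality, was also higher than on every control array in both deleted groups, at -0.211 to -0.112 on control, -0.0903 to 0.0115 on Rb KO and -0.108 to -0.0666 on DKO villus arrays. The same signal of beta-actin overlapped between the groups, at 0.142 to 0.235 on control, 0.193 to 0.29 on Rb KO and 0.173 to 0.219 on DKO villus arrays. With the GAPDH signal as a covariate limma called 35 genes higher in Rb KO than in control, with a median of 2.21, and 3 lower in DKO than in Rb KO villi, with a median of -0.86. The share of all genes called in that fit is not given here. More dividing cells and more of these transcripts per cell cannot be told apart in whole villi.

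Entry kinases and their partners rose without exception: all 9 measured were called, from 0.7 for Cdc25c, the phosphatase that activates Cdk1, to 2.95 for Cdk1 itself, the kinase that drives entry into mitosis. Cdk1 read 7.69, 6.59, 7.53, 8.54 and 6.49 in control villi, 10.43, 10.0, 9.95, 10.57 and 10.64 in Rb KO villi, and 8.71, 9.36, 9.51, 10.02 and 10.26 in DKO villi. No control array came near the Rb KO arrays, and the DKO arrays lay above every control array too (Rb KO minus control 2.95 ± 0.35, limma adjusted p = 1.6e-05). Plk1, a kinase of the centrosome and spindle, read 7.31, 6.67, 7.17, 7.69 and 6.68 in control villi, 8.44, 8.16, 8.22, 9.03 and 9.14 in Rb KO villi, and 7.26, 7.71, 7.79, 8.41 and 8.6 in DKO villi. Aurka, the kinase of the spindle poles, read 6.57, 6.26, 6.68, 7.43 and 6.17 in control villi, 8.58, 7.94, 8.26, 9.04 and 9.34 in Rb KO villi, and 7.26, 7.62, 7.81, 8.38 and 8.82 in DKO villi. For both kinases the Rb KO arrays stood wholly above the controls, by 1.5 ± 0.27 for Plk1 and 2.01 ± 0.32 for Aurka, and the DKO arrays spanned the gap between the other groups.

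The chromosomal passenger complex corrects faulty attachments of chromosomes to the spindle, and its 4 subunits rose together in Rb KO villi, between 1.55 for the scaffold Incenp and 2.04 for Birc5. Its kinase Aurkb read 5.85, 5.18, 5.96, 6.73 and 5.24 in control villi, 7.54, 7.07, 7.03, 7.86 and 7.84 in Rb KO villi, and 6.18, 6.28, 6.71, 7.53 and 7.58 in DKO villi. Birc5, also called survivin, read 8.04, 7.49, 7.72, 8.74 and 7.26 in control villi, 9.94, 9.42, 9.61, 10.22 and 10.27 in Rb KO villi, and 8.3, 8.71, 8.81, 9.66 and 9.9 in DKO villi. The difference between Rb KO and control was 1.68 ± 0.32 for Aurkb and 2.04 ± 0.31 for Birc5 (limma adjusted p = 9.9e-04 and 1.5e-04), with no overlap of arrays for either gene. The spindle checkpoint holds back anaphase until every chromosome is attached, and all 6 of its genes rose, with a median of 1.26. The checkpoint kinase Bub1 read 5.94, 4.93, 5.95, 6.92 and 5.18 in control villi, 7.44, 7.21, 7.04, 7.9 and 7.68 in Rb KO villi, and 6.07, 6.59, 6.91, 7.57 and 7.55 in DKO villi. Mad2l1, which codes for the checkpoint protein MAD2, read 8.15, 7.38, 7.86, 8.57 and 7.32 in control villi, 9.66, 9.27, 9.26, 9.89 and 9.88 in Rb KO villi, and 8.41, 8.88, 9.0, 9.38 and 9.76 in DKO villi. Their Rb KO arrays were all above the controls, by 1.67 ± 0.34 and 1.74 ± 0.26, and the smallest rise in the checkpoint was the 0.78 of Bub3.

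Among genes of anaphase, Ube2c, the ubiquitin-conjugating enzyme of the anaphase-promoting complex, rose by 2.41, and Pttg1 was the exception. Pttg1 codes for securin, which inhibits the separase Espl1 until anaphase, and it read 10.95, 9.36, 11.06, 10.83 and 10.74 in control villi, 10.67, 10.71, 10.95, 10.87 and 10.32 in Rb KO villi, and 10.59, 10.96, 10.83, 10.89 and 11.01 in DKO villi. Its Rb KO arrays lay within the range of the controls, and the difference of 0.12 ± 0.25 was not called (95% interval -0.41 to 0.64, limma adjusted p = 0.766). All 6 spindle genes rose, between 0.6 for Dlgap5, which stabilizes spindle microtubules, and 2.23 for Nusap1, which bundles them. The other probe set of Dlgap5 read 0.16 higher in Rb KO than in control villi. Of the 6 cytokinesis genes 5 rose. Prc1, which bundles the microtubules of the central spindle, read 8.02, 7.89, 7.88, 8.72 and 7.37 in control villi, 9.53, 9.15, 9.38, 9.99 and 9.8 in Rb KO villi, and 8.32, 8.68, 8.92, 9.57 and 9.59 in DKO villi. Cit, the citron kinase of the midbody, read 8.36, 8.51, 8.41, 8.24 and 8.62 in control villi, 8.39, 8.65, 8.48, 8.37 and 8.3 in Rb KO villi, and 8.59, 8.39, 8.41, 8.34 and 8.36 in DKO villi. Prc1 rose by 1.59 ± 0.26, and the 3 groups of Cit lay on top of each other, with a difference of 0.01 ± 0.08 (limma adjusted p = 0.961). Cit has 3 other probe sets, which read 0.24 to 0.61 higher in Rb KO than in control villi, and with all of its probe sets averaged Cit was called (0.3, limma adjusted p = 0.00379); for Pttg1 the same average gave 0.06 (limma adjusted p = 0.917). Top2a, the topoisomerase that untangles sister chromosomes, read 7.91, 6.59, 7.71, 8.49 and 6.81 in control villi, 9.88, 9.75, 9.9, 10.56 and 10.41 in Rb KO villi, and 8.37, 9.03, 9.16, 9.78 and 9.95 in DKO villi. Mki67 read 8.54, 7.07, 8.06, 9.18 and 7.21 in control villi, 11.14, 10.84, 10.97, 11.5 and 11.34 in Rb KO villi, and 9.58, 10.27, 10.36, 10.69 and 10.84 in DKO villi. Both genes separated Rb KO from control completely, with Top2a up by 2.6 ± 0.35 (limma adjusted p = 4.5e-05).

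**Figure D1:**
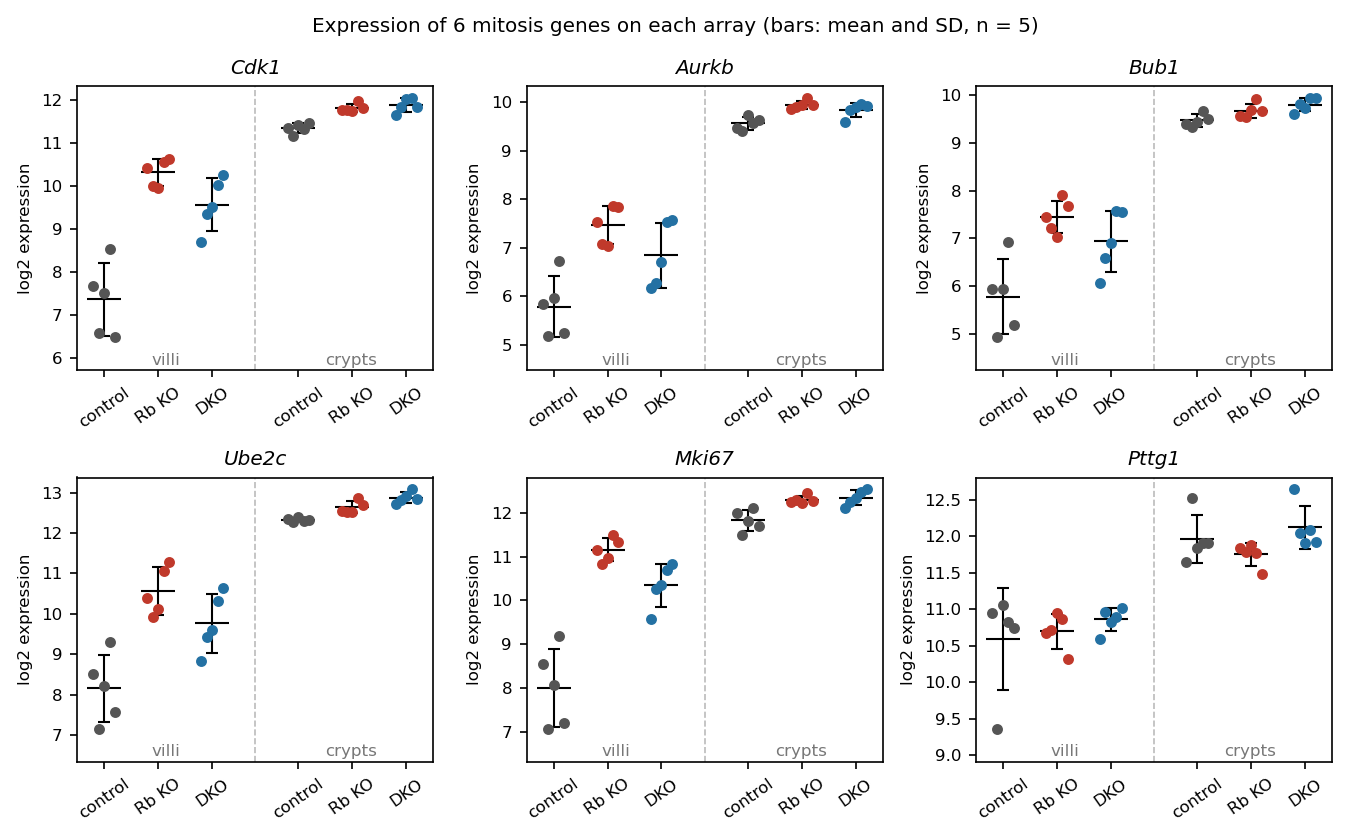
Log2 expression of Cdk1, Aurkb, Bub1, Ube2c, Mki67 and Pttg1 on each array, by genotype and tissue; points are arrays, and bars show the mean and SD of 5 arrays. Villi and crypts are not set against each other. The Rb KO villus arrays of Cdk1 sit between 9.95 and 10.64, above all control villus arrays (6.49 to 8.54), whereas those of Pttg1 (10.32 to 10.95) lie among its controls (9.36 to 11.06).

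The list of other regulators of mitotic entry and exit gave 15 of 20 higher and 2 lower in Rb KO villi. The strongest by p were Fbxo5, an inhibitor of the anaphase-promoting complex (2.74 ± 0.22, limma adjusted p = 2.4e-07), Cdc25b, a phosphatase that activates Cdk1 (1.82 ± 0.17), and Ccnf, cyclin F (2.35 ± 0.24). The phosphatases Cdc14a and Cdc14b fell by 0.56 and 0.48 on the log2 scale. Of the 14 subunits of the anaphase-promoting complex 7 rose, with the smallest p for Anapc5 (1.23), Anapc11 (1.1) and Anapc15 (0.76), and the median of the 14 was 0.12. Of 18 spindle and centrosome partners 14 rose, with the smallest p for Tubg1, gamma-tubulin (1.6), and the augmin subunits Haus4 (1.16) and Haus5 (1.43), with the largest rise in Stmn1, a regulator of microtubules (2.67). All 16 DNA replication genes rose, with a median of 2.64.

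The marker list of lymphocytes was the one of 5 marker lists with called genes in this comparison. None of the 9 crypt markers was called by limma, and their mean over an array ranged from 7.99 to 10.24 in control villi, 8.81 to 10.1 with Rb deleted and 9.12 to 10.3 with both deleted, and 0 of 7 villus, 0 of 4 B cell and 0 of 6 mesenchyme markers were called. Of 8 markers of T cells and intraepithelial lymphocytes 6 fell, Nkg7 by 1.2 and Itgae by 0.8, and their mean over an array was 10.46 to 11.07 in control villi, 9.86 to 10.55 with Rb deleted and 10.69 to 10.98 with both deleted. With the crypt marker mean as a covariate the count of mitosis genes stayed at 35 and their median was 1.34, and without control 2 and control 5 the count was 32 and the median 1.24. The share of all genes called in these fits is not given here.

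The promoters of the listed genes were read in RefSeq (build GRCm38.p6), 250 bases before to 50 bases after the start site, on both strands. Of the 38 genes 31 have an entry, among them Ccnb1, Cit and Pttg1, so the shares below are those of the listed genes and not of the genes that rose. CHR (TTTGAA or TTCGAA) was present in 22 of the 31 (71.0%), against 16.7% of 11660 tested genes and 21.7% of all 27025 genes with an entry. The CCAAT box (CCAAT), bound by NF-Y, was present in 22 (71.0%, against 42.2% of tested genes), and both elements together in 20 (64.5%, against 6.74%). An E2F site (TTTCCCGC, TTTGGCGC, TTTCGCGC or TTTGCCGC) was found in 1 gene, Cdk1 (3.23%, against 4.18% of tested genes), and an E-box of the letters CACGTG, the kind that Myc binds, in 3, Ttk, Anln and Espl1 (9.68%, against 11.0%). A gene counts where any of its listed promoters holds the letters, a match describes letters and not binding, and the shares were not tested.

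The 200 bases before the start site are shown for Cdk1 and Ube2c, which had the largest rise of their roles in Rb KO villi, for Top2a, with the lowest difference between DKO and Rb KO villi, for Ccnb2, a cyclin partner of Cdk1 that was called between DKO and Rb KO crypts, and for Pttg1, which was called in no comparison. Capitals mark matches to CHR, the CCAAT box and the E2F site on either strand.
Cdk1, chr10:69352913-69353112, strand -: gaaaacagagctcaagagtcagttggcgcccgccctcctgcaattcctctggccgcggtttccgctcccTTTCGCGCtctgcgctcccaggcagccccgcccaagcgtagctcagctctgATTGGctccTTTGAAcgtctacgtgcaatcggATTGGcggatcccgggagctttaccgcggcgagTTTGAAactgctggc
Ccnb2, chr9:70421555-70421754, strand -: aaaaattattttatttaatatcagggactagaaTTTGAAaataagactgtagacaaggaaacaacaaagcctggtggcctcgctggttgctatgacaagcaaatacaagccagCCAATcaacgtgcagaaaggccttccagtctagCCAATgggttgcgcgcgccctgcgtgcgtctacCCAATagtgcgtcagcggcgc
Ube2c, chr2:164769729-164769928, strand +: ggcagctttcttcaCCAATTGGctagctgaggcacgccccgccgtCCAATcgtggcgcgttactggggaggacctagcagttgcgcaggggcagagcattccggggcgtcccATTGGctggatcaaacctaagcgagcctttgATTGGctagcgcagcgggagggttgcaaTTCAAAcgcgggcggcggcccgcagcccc
Top2a, chr11:99024190-99024389, strand -: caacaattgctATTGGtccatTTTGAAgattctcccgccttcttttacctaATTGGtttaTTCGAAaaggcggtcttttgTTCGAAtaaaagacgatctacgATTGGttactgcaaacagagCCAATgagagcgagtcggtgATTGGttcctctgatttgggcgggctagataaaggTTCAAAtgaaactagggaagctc
Pttg1, chr11:43425982-43426181, strand -: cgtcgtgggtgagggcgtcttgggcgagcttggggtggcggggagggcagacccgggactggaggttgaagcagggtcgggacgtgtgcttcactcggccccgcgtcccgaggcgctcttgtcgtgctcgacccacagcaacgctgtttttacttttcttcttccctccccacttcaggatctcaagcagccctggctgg
Within the 200 bases shown, Cdk1 holds CHR at positions -71 and -15 from the start site and CCAAT boxes, read on the other strand, at -80 and -48. In Ube2c CHR lies at -29 with the nearest CCAAT box at -57, and the CCAAT boxes at -186 and -183 lie on opposite strands and overlap. Ccnb2 has CHR at -167 and again at 5, after the start and so outside the bases shown, with CCAAT boxes at -87, -54 and -21. In Top2a 4 matches to CHR lie between -179 and -23. Pttg1 has no match to any of the 4 motifs in its window, and neither does Cit, nor do Plk4, Birc5, Mad2l1, Nusap1 and Melk, which rose in Rb KO villi.

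**Figure D2:**
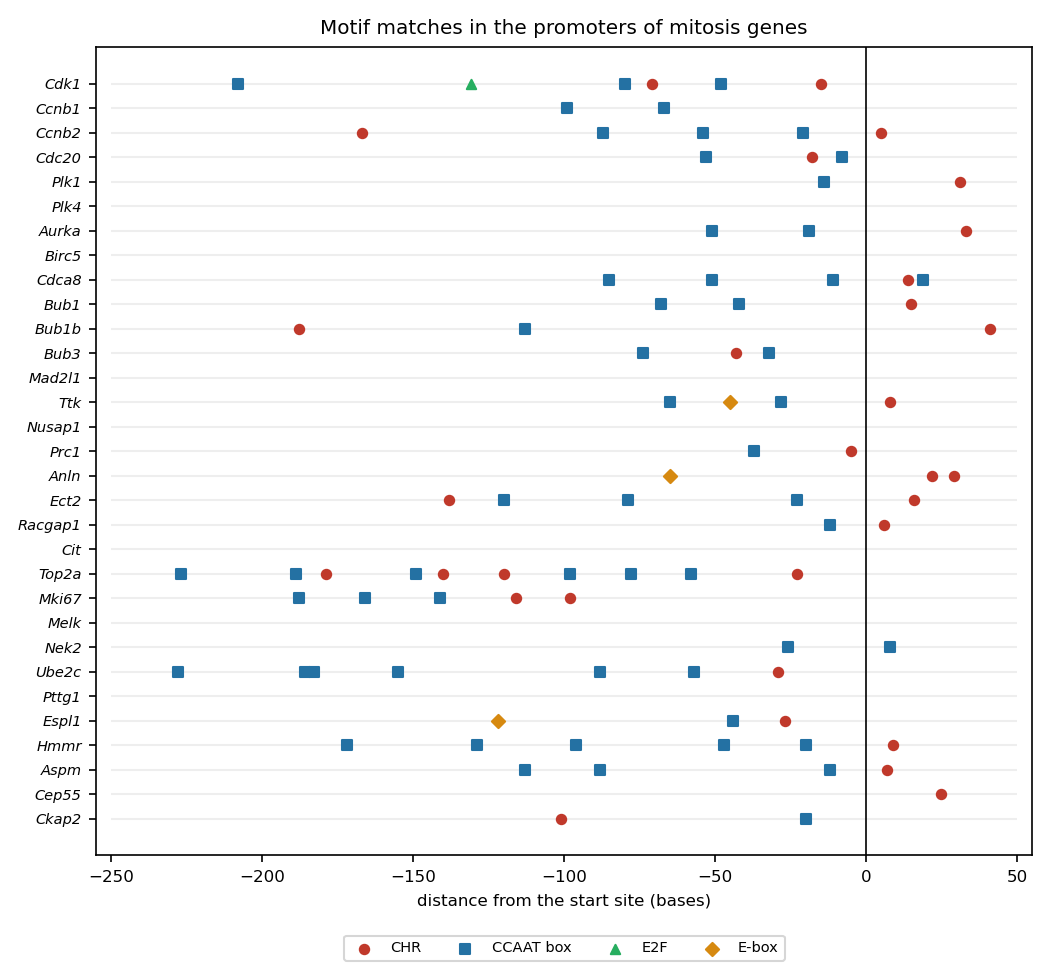
Motif matches in 1 listed promoter of each of 31 mitosis genes, by distance from the start site in bases (negative before the start), with 1 row per gene; red circles are CHR, blue squares CCAAT boxes, the green triangle the E2F site of Cdk1 and orange diamonds E-boxes. CHR and the CCAAT box occur together in 20 genes, and the E-box in 3.

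With Myc deleted as well, nearly all mitosis genes in villi had a lower mean than with Rb deleted alone, but none passed the test. Against Rb KO, 0 of 37 were called in DKO villi by limma, where 7.83% of all genes were called, 5.90% as higher and 1.92% as lower. An unadjusted p under 0.05 was found for 12 of the 37 mitosis genes and for 3555 of the 14548 genes tested. Differences were below 0 for 36 of the 37 mitosis genes (51.4% of all genes), with a median of -0.55 and a median SE of 0.28. The median of all genes was -0.01. The exception was Pttg1, at 0.15 ± 0.25. Among DKO villus arrays the mean over the 37 genes had an SD of 0.5, and the median SD of a single gene was 0.54. The genes thus moved together on an array, and their signs are not separate observations. The lowest difference was that of Top2a (-0.84 ± 0.35, 95% interval -1.58 to -0.11, limma adjusted p = 0.15), and the smallest p was that of Cdc25c (-0.45 ± 0.14, limma adjusted p = 0.0563).

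Most genes overlapped between the DKO and Rb KO arrays. Mki67 was the one gene whose DKO arrays (9.58 to 10.84) did not overlap the Rb KO arrays (10.84 to 11.5, equal at the edge only after rounding), at -0.81 ± 0.34 (95% interval -1.53 to -0.09, limma adjusted p = 0.157). As a share of the 37 genes this is close to the 2.96% of all genes that were apart in this direction. Cdk1 differed by -0.75 ± 0.35, with 3 DKO arrays under all Rb KO arrays and DKO 4 and DKO 5 among them. The mean over the 37 genes, minus the control mean, was 0.46, 0.81, 0.97, 1.5 and 1.67 on the DKO arrays and 1.58, 1.27, 1.34, 1.96 and 1.95 on the Rb KO arrays. DKO 4 and DKO 5, the highest of the DKO arrays, also had the highest crypt marker means of their group (10.3 and 9.89), and both were female, as read from Xist.

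By role the median difference between DKO and Rb KO villi was -0.64 for entry kinases, -0.6 for the passenger complex, -0.39 for the checkpoint, -0.68 for the anaphase genes, -0.51 for spindle and -0.54 for cytokinesis genes, and -0.83 for Top2a and Mki67. The related lists gave 0 called of 20 regulators of entry and exit, 0 of 18 spindle partners, and 1 of 14 subunits of the anaphase-promoting complex, Anapc1, which fell by 0.22. Of the 16 replication genes 1 fell, Fen1, the flap endonuclease, by 0.38, and their median was -0.37.

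The count of calls changed with the crypt markers of the villus arrays in the fit. With the crypt marker mean as a covariate 33 of 37 genes were called lower in DKO than in Rb KO villi, with a median of -0.74, among them Mki67 (-1.03 ± 0.16, limma adjusted p = 9.6e-04), Top2a (-1.06 ± 0.18) and Ube2c (-1.04 ± 0.23), and Bub1b, Cit, Dlgap5 and Pttg1 were not called. The share of all genes called in that fit is not given here, so the 33 has no background to be set against. Between DKO and Rb KO villi 0 of 9 crypt markers and 4 of 8 T cell markers were called. The T cell markers were higher in DKO (Nkg7 1.32, Itgae 0.78), and their part in the result was not tested.

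Against control, DKO villi still expressed more of the mitotic program. Of the 37 genes 29 were called higher and 0 lower, where 17.1% of all genes were called, 11.3% as higher and 5.78% as lower, with a median of 1.12 and 23 genes over 2-fold. The largest differences were 2.34 for Mki67, 2.31 for Pbk, a kinase of dividing cells, and 2.2 for Cdk1. Ccnb2, Cdc25c, Bub1b, Ttk, Racgap1, Espl1, Cit and Pttg1 were not called, with values between -0.01 (Cit) and 1.12 (Ccnb2, limma adjusted p = 0.0584). With all of its probe sets averaged Cit was called higher (0.21, limma adjusted p = 0.0426). The DKO arrays were wholly above the controls for 3 of the 37 genes, Cdk1, Mki67 and Dlgap5, a share no higher than the 8.99% of all genes. Of the 9 crypt markers 1 rose, Lyz1, the lysozyme of Paneth cells, by 1.1 (limma adjusted p = 0.0386), and the median of the 9 was 0.84. With the crypt marker mean as a covariate 20 mitosis genes were called and their median was 0.58. Without control 2 and control 5, the arrays poorest in crypt markers, 7 genes were called and the median was 0.71, and without DKO 5 the count was 19. The share of all genes called in these fits is not given here, so their counts have no background to be set against.

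**Figure D3:**
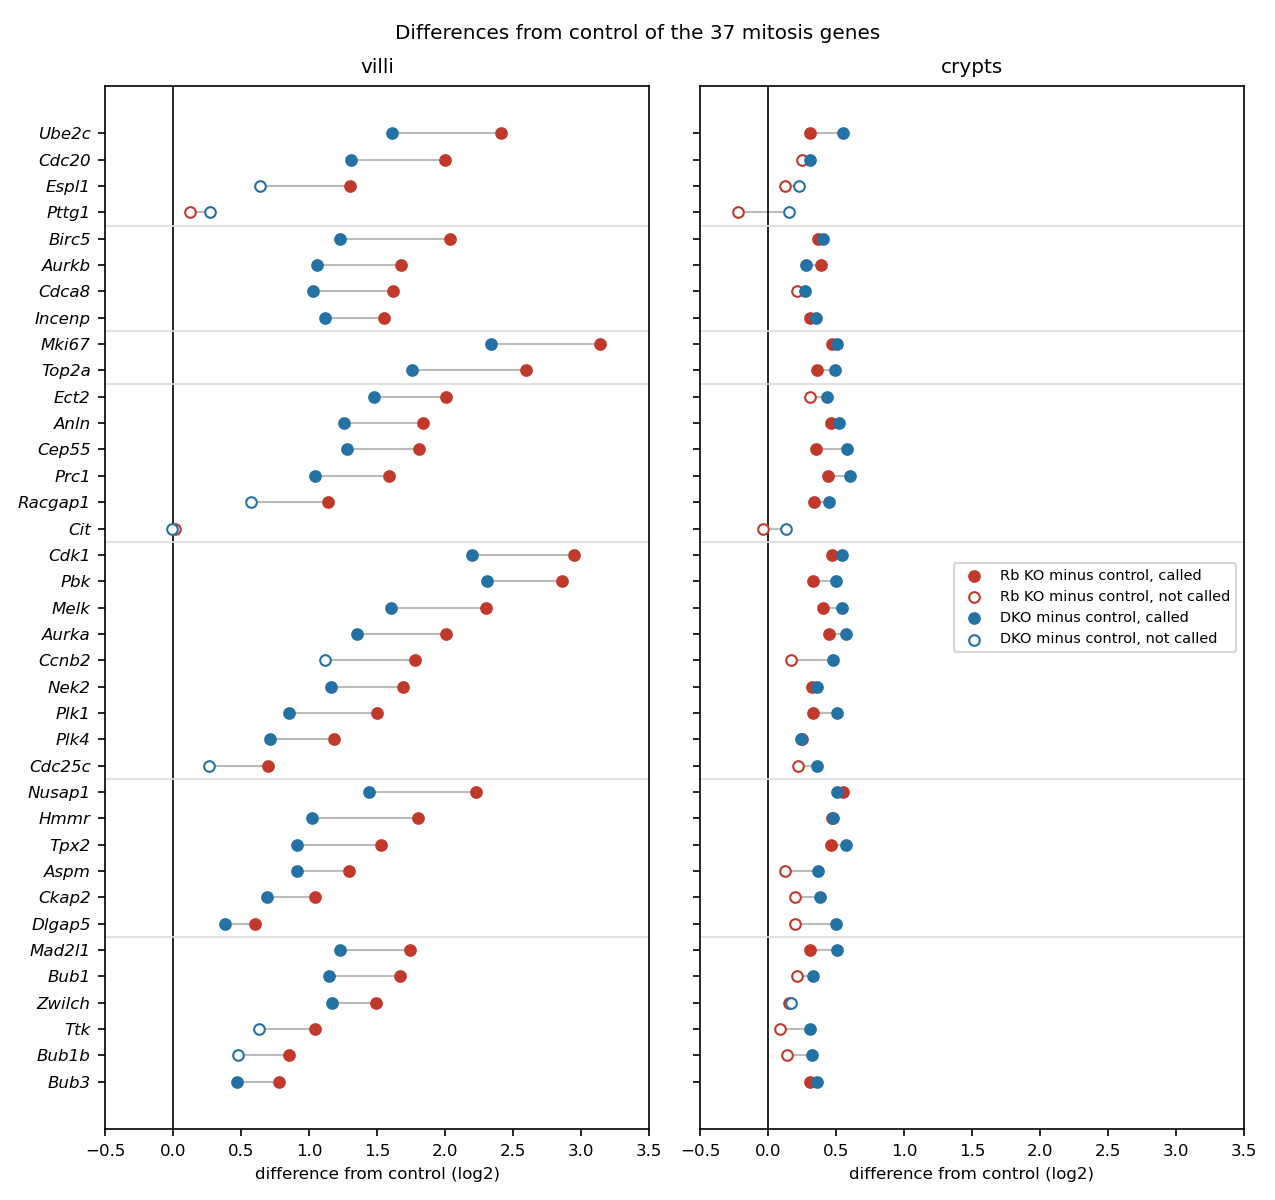
Differences from control (log2) of the 37 mitosis genes in villi (left) and crypts (right), grouped by role; red is Rb KO and blue is DKO, filled points passed the test at 0.05 and open points did not, and grey lines join the points of a gene. In villi nearly all blue points lie left of the red ones, with medians of 1.12 and 1.67. In crypts the medians are 0.43 and 0.31.

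In crypts, where cells divide already, the differences between Rb KO and control were smaller. Of the 37 genes 22 were called higher in Rb KO than in control crypts and 0 lower, where 10.3% of all genes were called, 7.33% as higher and 2.97% as lower. The median was 0.31 and no gene passed 2-fold, and 19 genes had every Rb KO array above every control array, against 6.76% of all genes. The largest difference was that of Nusap1 and the lowest that of Pttg1.

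Entry kinases led by count, with 7 of 9 called, and the chromosomal passenger complex had 3 of 4. Cdk1 read 11.35, 11.17, 11.42, 11.32 and 11.48 in control crypts, 11.78, 11.78, 11.75, 11.97 and 11.81 in Rb KO crypts, and 11.66, 11.85, 12.03, 12.05 and 11.83 in DKO crypts. Plk1 read 10.47, 10.33, 10.6, 10.44 and 10.56 in control crypts, 10.75, 10.71, 10.69, 11.1 and 10.8 in Rb KO crypts, and 10.72, 10.89, 11.09, 11.2 and 11.05 in DKO crypts. Aurka read 10.24, 10.11, 10.31, 10.13 and 10.34 in control crypts, 10.63, 10.51, 10.57, 10.93 and 10.72 in Rb KO crypts, and 10.63, 10.72, 10.95, 10.89 and 10.77 in DKO crypts. In each of these 3 kinases all Rb KO arrays exceeded all controls, by 0.47 ± 0.08, 0.33 ± 0.09 and 0.45 ± 0.08, and the DKO arrays overlapped the Rb KO arrays. Aurkb read 9.46, 9.4, 9.73, 9.56 and 9.63 in control crypts, 9.86, 9.89, 9.94, 10.08 and 9.94 in Rb KO crypts, and 9.58, 9.84, 9.89, 9.95 and 9.91 in DKO crypts. Birc5 read 11.35, 11.32, 11.57, 11.39 and 11.52 in control crypts, 11.74, 11.73, 11.72, 11.95 and 11.85 in Rb KO crypts, and 11.62, 11.75, 11.88, 11.97 and 11.95 in DKO crypts. Both rose, by 0.39 ± 0.08 and 0.37 ± 0.08 (limma adjusted p = 0.0039 and 0.0049), and Aurkb was the one of the pair whose DKO arrays reached down into the controls.

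The checkpoint had 2 of 6 called, Bub3 (0.31) and Mad2l1. Bub1 read 9.39, 9.33, 9.44, 9.67 and 9.51 in control crypts, 9.56, 9.54, 9.69, 9.92 and 9.66 in Rb KO crypts, and 9.6, 9.82, 9.72, 9.94 and 9.93 in DKO crypts. Mad2l1 read 11.15, 11.03, 11.32, 11.18 and 11.28 in control crypts, 11.47, 11.44, 11.47, 11.58 and 11.53 in Rb KO crypts, and 11.52, 11.64, 11.76, 11.91 and 11.7 in DKO crypts. The groups of Bub1 overlapped, and its 0.21 ± 0.09 was not called (limma adjusted p = 0.148), while the Rb KO arrays of Mad2l1 all lay above its controls (0.31 ± 0.07, limma adjusted p = 0.0109). Of the anaphase genes 1 of 4 was called, Ube2c, and of the spindle genes 3 of 6, Tpx2, which activates Aurka (0.46, limma adjusted p = 4.2e-04), Nusap1 and Hmmr. Nusap1 read 10.41, 10.29, 10.54, 10.53 and 10.17 in control crypts, 10.85, 10.83, 10.91, 11.1 and 11.01 in Rb KO crypts, and 10.67, 10.99, 10.88, 10.97 and 10.98 in DKO crypts. All Rb KO and DKO arrays lay above the controls, with a difference of 0.55 ± 0.08 between Rb KO and control (limma adjusted p = 6.0e-04).

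Of the cytokinesis genes 4 of 6 were called. Prc1 read 10.06, 9.85, 10.12, 10.15 and 10.07 in control crypts, 10.42, 10.33, 10.48, 10.71 and 10.51 in Rb KO crypts, and 10.4, 10.51, 10.77, 10.78 and 10.81 in DKO crypts. Cit read 8.69, 8.84, 8.72, 8.86 and 8.87 in control crypts, 8.76, 8.82, 8.79, 8.71 and 8.7 in Rb KO crypts, and 9.04, 8.8, 8.88, 8.86 and 9.07 in DKO crypts. Prc1 rose by 0.44 ± 0.09, and Cit (-0.04 ± 0.06) was not called. Top2a read 11.71, 11.39, 11.6, 11.78 and 11.5 in control crypts, 11.88, 11.88, 11.93, 12.17 and 11.91 in Rb KO crypts, and 11.85, 12.01, 11.97, 12.28 and 12.3 in DKO crypts. Mki67 read 12.0, 11.5, 11.82, 12.11 and 11.7 in control crypts, 12.25, 12.29, 12.21, 12.46 and 12.26 in Rb KO crypts, and 12.11, 12.25, 12.34, 12.47 and 12.53 in DKO crypts. Both rose, by 0.36 ± 0.1 and 0.47 ± 0.1 (limma adjusted p = 0.0245 and 0.00914), and in both the Rb KO array 4 was the highest of its group.

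Of the related lists, 5 of 20 regulators of entry and exit rose in Rb KO crypts, with the smallest p for Fbxo5 (0.65), Ccnf (0.49) and Cdc25b (0.71), with 3 of 14 subunits of the anaphase-promoting complex and 10 of 18 spindle partners, with the largest rise in Tubg1 (0.82). All 16 replication genes rose, with a median of 0.6. Of the 9 crypt markers 1 fell, Ang4, an antimicrobial protein of Paneth cells, by 0.4; their mean ranged from 12.34 to 12.75 in control crypts, 12.1 to 12.5 with Rb deleted and 12.41 to 12.78 with both deleted. All 9 crypt markers had a difference below 0, with a median of -0.12, and all 7 villus markers one above 0, with a median of 0.25, of which Ada rose (0.69, limma adjusted p = 0.00204). With the crypt marker mean as a covariate Cdk1 (0.47 ± 0.09, limma adjusted p = 0.00548) and Nusap1 (0.57 ± 0.1, limma adjusted p = 0.00261) were among the genes called. Plk1, Plk4, Nek2, Ube2c and Cep55 were among those not called (limma adjusted p = 0.0899, 0.134, 0.111, 0.053 and 0.0582). Beyond that fit, the part of crypt and villus cells in the result was not tested.

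No mitosis gene was called lower in DKO than in Rb KO crypts, where Myc itself fell by 1.6. Between DKO and Rb KO crypts 3 of 37 genes were called, all higher in DKO, and 0 lower, where 12.4% of all genes were called, 5.17% as higher and 7.22% as lower. The difference was below 0 for 3 genes, against 47.8% of all genes, and the median was 0.13 with a median SE of 0.08. At an unadjusted p under 0.05 limma gave 11 of the 37 genes, and the share of all genes at that level is not given here. By role the medians were 0.14 for entry kinases, 0.04 for the passenger complex, 0.15 for the checkpoint, 0.17 for anaphase and 0.14 each for spindle and cytokinesis genes.

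The called genes were Dlgap5, Ccnb2 and Ube2c. Dlgap5 read 9.0, 8.72, 8.87, 8.78 and 8.88 in control crypts, 9.04, 8.96, 9.08, 9.15 and 9.0 in Rb KO crypts, and 9.2, 9.27, 9.38, 9.58 and 9.36 in DKO crypts. Ccnb2 read 11.26, 11.09, 11.35, 11.21 and 11.17 in control crypts, 11.4, 11.36, 11.35, 11.5 and 11.34 in Rb KO crypts, and 11.47, 11.63, 11.79, 11.94 and 11.66 in DKO crypts. Ube2c read 12.34, 12.27, 12.39, 12.3 and 12.33 in control crypts, 12.55, 12.53, 12.53, 12.88 and 12.7 in Rb KO crypts, and 12.72, 12.82, 12.92, 13.08 and 12.84 in DKO crypts. All DKO arrays of Dlgap5 lay above all Rb KO arrays (0.31 ± 0.07, limma adjusted p = 0.00958), while 1 low DKO array overlapped the Rb KO group in Ccnb2 (0.31 ± 0.08, limma adjusted p = 0.0147), and in Ube2c the high Rb KO array 4 lay among the DKO arrays (0.24 ± 0.07, limma adjusted p = 0.047). Pttg1 read 11.65, 12.52, 11.84, 11.9 and 11.91 in control crypts, 11.84, 11.78, 11.88, 11.77 and 11.48 in Rb KO crypts, and 12.64, 12.04, 11.9, 12.08 and 11.92 in DKO crypts. Its DKO arrays were all above the Rb KO arrays but overlapped the controls, and its 0.37 ± 0.15 was not called (limma adjusted p = 0.139). With all probe sets of a gene averaged, Pttg1 (0.54, limma adjusted p = 0.0258) and Cit (0.29, limma adjusted p = 0.00223) were called higher in DKO than in Rb KO crypts. The other probe set of Dlgap5 read 0.13 higher in DKO than in Rb KO crypts. The arrays of 2 mitosis genes in all were apart upward, a share close to the 4.89% of all genes.

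For Cdk1, Aurkb, Bub1 and Mki67, which were not called, the 95% intervals spanned 0. Other genes not called had an unadjusted p under 0.05 by limma, and of the 6 checkpoint genes 3 had such a p. Cdk1 differed by 0.07 ± 0.08 (95% interval -0.1 to 0.23), Aurkb by -0.11 ± 0.08 (-0.27 to 0.05), Bub1 by 0.13 ± 0.09 (-0.05 to 0.31) and Mki67 by 0.04 ± 0.1 (-0.18 to 0.27). None of the 20 regulators of entry and exit, the 14 subunits of the anaphase-promoting complex or the 18 spindle partners was called, and of 16 replication genes 1 fell, Mcm6, by 0.21. In this comparison 3 of 9 crypt markers were called higher in DKO, Ang4 (0.57), Slc12a2 (0.52) and Itln1 (0.32), and 1 of 8 T cell markers, Itgae (0.71, limma adjusted p = 6.2e-04), with a median of 0.33 over the 8. With the crypt marker mean as a covariate 0 mitosis genes were called by limma and their median was 0.12. Without DKO 1, the lowest DKO array, 7 genes were called. For these fits the share of all genes called is not given here.

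DKO crypts against control crypts gave 33 of 37 genes higher and 0 lower, where 20.2% of all genes were called, 11.0% as higher and 9.19% as lower. The median was 0.43, the largest difference was 0.6 for Prc1, and 24 genes had every DKO array above every control array, against 7.54% of all genes. Zwilch, a protein of the kinetochore, Espl1, Cit and Pttg1 were not called, at 0.17, 0.23, 0.13 and 0.15. With all probe sets of a gene averaged, Cit was called (0.28, limma adjusted p = 0.00134) and Pttg1 was not (0.29, limma adjusted p = 0.2). Of the marker lists, 2 of 8 T cell markers rose, Cd3g (0.89) and Itgae (0.58), with a median of 0.51 over the 8, as did the villus marker Ada (0.41) and the crypt marker Itln1 (0.2). With the crypt marker mean as a covariate Prc1 was called (0.59 ± 0.09, limma adjusted p = 3.7e-04), and Zwilch, Espl1, Cit and Pttg1 were again not called. Beyond that fit, the part of these markers in the result was not tested. This comparison shares its control arrays with that of Rb KO and its DKO arrays with that of DKO against Rb KO.

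**Figure D4:**
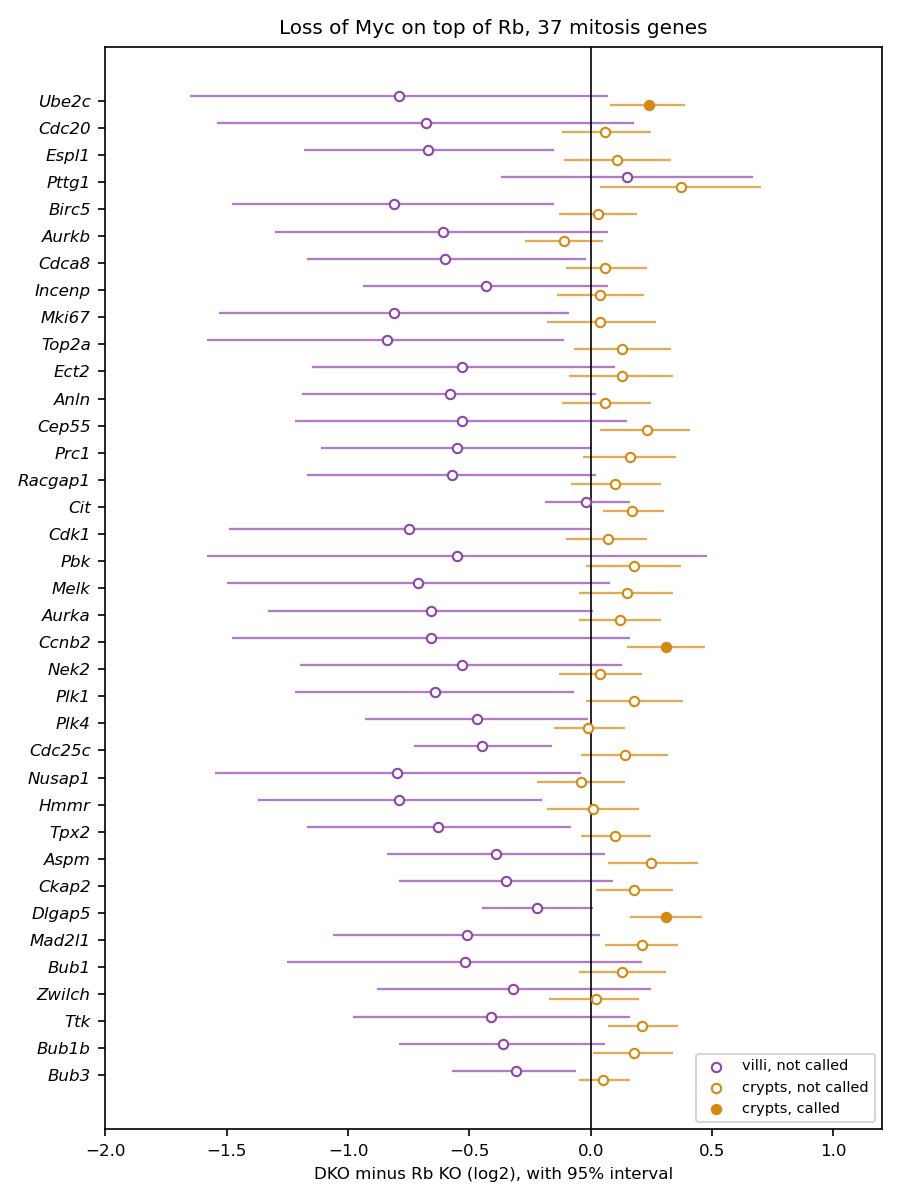
DKO minus Rb KO (log2) of the 37 mitosis genes with the 95% interval from the fit, purple for villi and orange for crypts; filled points passed the test at 0.05. The villus values centre on -0.55 with wide intervals and none is filled, and the crypt values centre on 0.13 with narrow ones, where Ccnb2, Dlgap5 and Ube2c are filled.

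Whether the effects differ between the tissues was tested directly, as the effect in villi minus that in crypts over all 30 arrays. This fit took the arrays as independent, although villus and crypt arrays of the same number appear to share an animal. The count with the animal as a block is given below for the Myc effect only. For the loss of Rb, 33 of 37 genes had the larger rise in villi and 0 in crypts, where 13.7% of all genes were called, 6.76% in the first direction and 6.98% in the other, with a median of 1.34. Mki67 differed most (2.68 ± 0.37, limma adjusted p = 1.4e-05), followed by Pbk (2.54) and Cdk1 (2.48 ± 0.38), and Cdc25c, Racgap1, Cit and Pttg1 were not called. Without control villi 2 and 5 the count was 20 and the median 0.98, and the share of all genes called in that fit is not given here.

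For the further loss of Myc, all 37 differences between tissues were below 0, against 49.6% of all genes, with a median of -0.67. Because the mitosis genes moved together on the villus arrays, these signs are not separate observations. Of these, 2 were called, where 3.40% of all genes were called, 2.29% as higher and 1.11% as lower: Dlgap5 (-0.53 ± 0.13, limma adjusted p = 0.0264) and Cdc25c (-0.59 ± 0.17, limma adjusted p = 0.0452). Between DKO and Rb KO, the probe set used for Dlgap5 differed by -0.22 in villi and 0.31 in crypts, and its other probe set by -0.1 and 0.13. For Cdc25c the values were -0.45 and 0.14 with the probe set used, and -0.5 and 0.16 with the other. An unadjusted p under 0.05 was found for 25 of the 37, and the share of all genes at that level is not given here. Dlgap5 read 7.2, 7.19, 7.31, 7.28 and 6.92 in control villi, 7.83, 7.65, 7.49, 7.9 and 8.01 in Rb KO villi, and 7.36, 7.48, 7.46, 7.76 and 7.74 in DKO villi. Cdc25c read 5.93, 5.96, 5.73, 6.11 and 5.56 in control villi, 6.54, 6.42, 6.17, 6.9 and 6.76 in Rb KO villi, and 5.97, 5.9, 6.12, 6.36 and 6.22 in DKO villi, and 7.97, 7.76, 8.08, 7.94 and 7.96 in control crypts, 8.17, 8.08, 8.04, 8.32 and 8.19 in Rb KO crypts, and 8.26, 8.37, 8.47, 8.42 and 8.01 in DKO crypts. In both genes the DKO mean lay under the Rb KO mean in villi and over it in crypts, and in villi the DKO and Rb KO arrays overlapped. With the villus and crypt arrays of 1 genotype and number taken as 1 animal and the animal as a block, 6 genes were called, Dlgap5, Cdc25c, Espl1, Bub3, Plk1 and Aspm, and with the crypt marker mean as a covariate 20 were. For neither fit is the share of all genes given here. The effect on Myc itself also differed between the tissues (-0.52 in villi, -1.6 in crypts, difference 1.08 ± 0.28, limma adjusted p = 0.0314).

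**Figure D5:**
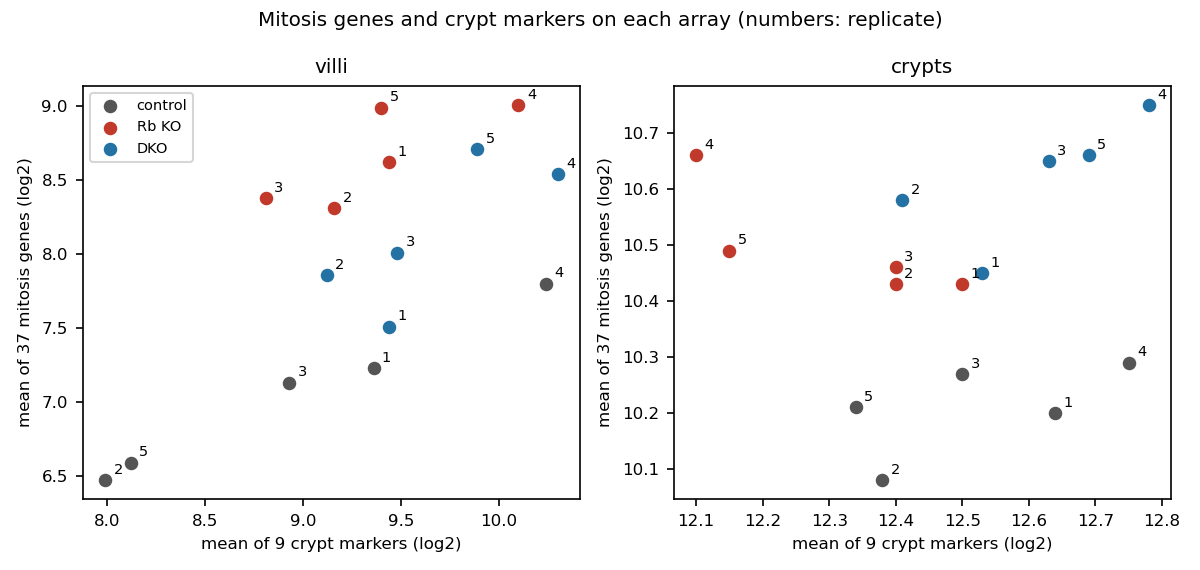
Mean of the 37 mitosis genes against the mean of 9 crypt markers (both log2) on each array of villi (left) and crypts (right); grey is control, red Rb KO and blue DKO, and numbers are replicates. In villi, arrays of a group with more crypt marker signal tend to have more mitosis signal, as from control 2 (7.99 and 6.47) to control 4 (10.24 and 7.8), and the Rb KO arrays lie above the controls at a like marker level. In crypts, Rb KO 4 has the lowest marker mean (12.1) and the highest mitosis mean of its group (10.66).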

How the data were processed

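Expression was read from the deposited table of 30 arrays, log2 values per probe set as the authors deposited them, between 2.64 and 15.21. How the authors normalized and summarized the arrays is not given in the sources used here. Of 45101 probe sets, 34958 carry 1 gene symbol in the platform annotation, 932 several and 9211 none, and genes were named only from the first kind. Each gene was read from its probe set of highest mean, and 14548 of 18194 genes, those whose mean exceeded 5.33, the 30th percentile of all probe sets, were tested.

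Within each tissue 15 arrays of 3 genotypes entered 1 linear model (limma 3.58.1, R 4.3.3), with two-sided p-values under Benjamini-Hochberg adjustment over all genes and a threshold of 0.05. Effects in villi and crypts were compared as an interaction over all arrays. Within each genotype, the villus and the crypt array with the same number shared their deviations from the group mean (15 of 15 correlations over 0.1, from 0.246 to 0.56), so they were taken as 1 animal and the block by duplicateCorrelation (consensus 0.233) was run beside the interaction. The number of arrays limits the precision. The fits were also run on simulated arrays with known changes. There the noise was drawn independently for each gene, so shifts that many genes share on an array were not covered.

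The members and the lists of related and marker genes were chosen with earlier results of these data known. Arrays are given one by one for main members of each role and, by rule, for members not called where most are, with the largest or smallest difference, or called between DKO and Rb KO or between tissues; related lists are given by count with up to 3 genes of smallest p. Alternatives were the mean of all probe sets, other filters, quantile normalization, other limma settings, crypt marker mean or sex as covariate, the replicate number as a block, fewer arrays and an adjusted p under 0.01. Promoters were scanned in Python 3.11.15 and figures drawn with matplotlib 3.10.9.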

Additional observations from a re-analysis of the deposited data

Results flagged for a closer look

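Among 222 groups of 5 arrays (37 genes in 6 groups), 10 held an array far from the other 4, where chance gives about 1 in 20. Of these, 7 were the same array, Rb KO crypts 4, which was high in Cdk1 (11.97), Plk1 (11.1), Tpx2 (9.66), Anln (10.19), Racgap1 (10.08), Top2a (12.17) and Ckap2 (9.67), and its mean over the 37 genes (10.66) stood apart too. The other 3 were in Pttg1: low in control villi 2 (9.36) and Rb KO crypts 5 (11.48), and high in DKO crypts 1 (12.64).

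The effect of Rb loss was larger in villi than in crypts by the interaction test for 33 genes. Among entry kinases and their partners the difference of the effects was 2.48 for Cdk1, 1.6 for Ccnb2, 1.17 for Plk1, 0.94 for Plk4, 1.56 for Aurka, 1.37 for Nek2, 1.91 for Melk and 2.54 for Pbk. In the passenger complex it was 1.29 for Aurkb, 1.24 for Incenp, 1.67 for Birc5 and 1.42 for Cdca8. In the checkpoint it was 1.46 for Bub1, 0.71 for Bub1b, 0.47 for Bub3, 1.43 for Mad2l1, 0.95 for Ttk and 1.34 for Zwilch, and among anaphase genes 1.75 for Cdc20, 2.09 for Ube2c and 1.18 for Espl1. Spindle genes gave 1.07 for Tpx2, 1.68 for Nusap1, 1.34 for Hmmr, 0.4 for Dlgap5, 1.18 for Aspm and 0.84 for Ckap2. Cytokinesis genes gave 1.15 for Prc1, 1.39 for Anln, 1.7 for Ect2 and 1.46 for Cep55, and chromosome genes 2.24 for Top2a and 2.68 for Mki67. The effect of Myc loss on top of Rb loss differed between tissues for Cdc25c (-0.59) and Dlgap5 (-0.53).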

How the results depend on the processing

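Alternatives chosen after seeing the data were leaving out control villi 2 and 5 and the GAPDH 3' minus 5' signal as a covariate. In Rb KO against control villi and DKO against control crypts every alternative run kept the count within 1.5 times. For DKO against Rb KO villi the count of 0 became 33 with the crypt marker covariate, 6 with sex (read from Xist), 3 with the GAPDH covariate, 2 with the replicate block, 2 with only the 2 genotypes compared and 1 without control villi 2 and 5. For DKO against control villi 29 became 7 without control villi 2 and 5 and 12 at an adjusted p under 0.01, and for Rb KO against control crypts 22 became 11 at that threshold. For DKO against Rb KO crypts 3 became 5 with the mean of all probe sets, 6 with the replicate block, 0 with the crypt marker covariate and 1 at an adjusted p under 0.01. For the tissue difference of the Rb effect 33 became 20 without control villi 2 and 5. For that of the Myc effect 2 became 4 with the mean of all probe sets, 20 with the crypt marker covariate, 4 with the GAPDH covariate, 6 with the animal as replicate block and 0 at an adjusted p under 0.01. The cause of these shifts was not tested, and the share of all genes called under each alternative is not given here.

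With each array left out in turn the counts ran from 35 to 35, 0 to 1 and 19 to 31 in the villus comparisons (Rb KO against control, DKO against Rb KO, DKO against control), from 15 to 22, 2 to 7 and 30 to 33 in the crypt comparisons, and from 30 to 35 and 1 to 4 in the tissue differences of the Rb and Myc effects. The 19 came without DKO villi 5 and the 7 without DKO crypts 1. The count of 2 for the Myc effect moved by over 1.5 times without control crypts 1, Rb KO crypts 1, 2, 3 or 5, DKO crypts 1, 2, 3 or 4, Rb KO villi 4 or 5, or DKO villi 1, 2, 3 or 5. The 1 in DKO against Rb KO villi came without control villi 4, control villi 5 or Rb KO villi 3. Of 5883 values of single genes under an alternative, 5549 kept sign and call, 192 lost and 92 gained the call, 49 uncalled values changed sign, and 1 reversed with a call: Cit in DKO against control villi, at 0.21 with the mean of all probe sets. Within a tissue the same number did not pair genotypes (12 of 30 correlations over 0.1), so that block stands here alone.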
